A study of Rattus norvegicus with 82 samples.

Results

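The comparison set the hypothalamus of rats labelled ADX against that of rats labelled Sham. Members were the arrays whose title carries the region code Hypo or Hypo b with either treatment, which gave 8 of the 82 arrays of the series, 4 ADX and 4 Sham. Each treatment held 2 arrays labelled AM and 2 labelled PM, and titles ending in the letter b were taken as replicate 2 of a time of day. The other 4 hypothalamus arrays, labelled pADX, served only as a reference and to estimate the spread. ADX usually abbreviates adrenalectomy, the removal of the adrenal glands, and Sham the control operation. The labels spell out neither, and they do not explain the p of pADX. Strain, sex, age, the delay after surgery, any steroid or salt replacement and the clock times behind AM and PM are not stated in the labels. Total RNA was hybridised to arrays of 31099 probe sets, short sets of probes that each report 1 transcript as 1 linear intensity. The labels do not say whether an array holds RNA of 1 animal or of a pool, so the p-values measure the spread between these arrays, which may be partly technical. The number of arrays limits the precision.

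The adrenal cortex secretes glucocorticoids and mineralocorticoids, which enter the brain and act through the receptors encoded by Nr3c1 and Nr3c2. These receptors bind DNA and raise or lower the transcription of target genes. In the hypothalamus, neurons of the paraventricular nucleus release corticotropin-releasing hormone (Crh) and vasopressin (Avp), which drive the pituitary and adrenal glands, and glucocorticoids feed back on them. In rodents adrenal glucocorticoid secretion also has a daily rhythm, with its peak before the active night, and loss of the adrenal glands removes both the hormone and its rhythm.

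The source name of all 12 hypothalamus arrays names the left hippocampi, whereas the description and the region code in the title name the hypothalamus. The tissue was therefore checked against marker genes over the 7 regions of the series. Of 16 hypothalamus markers measured, 13 had their highest mean in these arrays, among them the neuropeptide genes Pmch at 12.19, Avp at 11.17 and Oxt at 10.95 on the log2 scale. Pmch was at 4.61, Avp at 4.30 and Oxt at 4.16 in the hippocampus arrays. Of 13 hippocampus markers, 10 were highest in the arrays titled hippocampus and 0 in those titled hypothalamus. The arrays thus went with their titles. Otp, Pomc and Six3 were at the floor on all hypothalamus arrays. That floor was set at an intensity of 16, which is 4 on the log2 scale, after quantile normalization. The mean intensity after trimming 2% at each end, as deposited, lay between 94.2 and 118 in Sham and between 73.6 and 96.4 in ADX (exact two-sided permutation test, p = 0.0571, with 0.0286 the smallest p that 4 against 4 allows). The 3'/5' ratio of the GAPDH control, a sign of RNA quality, lay between 0.999 and 1.09 in Sham and between 0.974 and 1.045 in ADX (exact permutation test, p = 0.20). Each array's correlation with the mean of the other arrays of its group was 0.990 to 0.992 in Sham and 0.987 to 0.989 in ADX. These ranges did not overlap. The 4 values of a group are built from one another, so the permutation test on them (p = 0.0286) cannot say whether the groups differ. The ADX arrays were thus dimmer on average as deposited and had somewhat lower correlations, and the part of either in the results was not tested.

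The genes that separated ADX from Sham most clearly encode a sulfotransferase, a membrane steroid receptor, a secreted protease and a lysosomal protease. Sult1a1, Paqr8, Htra1 and Ctss all fell in ADX, together with 1 probe set that carries no gene symbol, 1370310_at. In limma, with additive terms for treatment and time of day over the 12 hypothalamus arrays, these 5 probe sets passed a Benjamini-Hochberg adjusted p of 0.05 among 31042 tested. They are 0.0161% of all probe sets tested, and none rose (0% of those tested). At an unadjusted p under 0.05, 995 probe sets were lower and 997 higher in ADX, 3.21% of all tested in each direction. By genes, with the probe set of highest mean standing for each of 14217 genes, 4 fell (0.0281%) and 0 rose.

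The RefSeq sequence around the start of these genes gives their context. The table of promoters, on assembly GRCr8, holds 250 bases before to 50 bases after each start, with entries for Sult1a1, Htra1 and Ctss. Paqr8 was not matched. The glucocorticoid and mineralocorticoid receptors bind pairs of a 6-base half-site, AGAACA, or TGTTCT on the opposite strand, set 3 bases apart. The sequences are written 5′ to 3′ along the gene's strand, and capitals mark a half-site on either strand. They are shown because these genes passed over all probe sets. Sult1a1 lies at chr1:190706063-190706362 on the minus strand, Htra1 at chr1:194927819-194928118 on the plus strand and Ctss at chr2:185775146-185775445 on the plus strand.
Sult1a1: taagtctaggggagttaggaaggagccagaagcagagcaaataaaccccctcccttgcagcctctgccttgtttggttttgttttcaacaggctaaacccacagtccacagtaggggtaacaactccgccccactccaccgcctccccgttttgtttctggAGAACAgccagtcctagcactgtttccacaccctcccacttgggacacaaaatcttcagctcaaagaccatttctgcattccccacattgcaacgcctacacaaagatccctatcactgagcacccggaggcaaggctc
Htra1: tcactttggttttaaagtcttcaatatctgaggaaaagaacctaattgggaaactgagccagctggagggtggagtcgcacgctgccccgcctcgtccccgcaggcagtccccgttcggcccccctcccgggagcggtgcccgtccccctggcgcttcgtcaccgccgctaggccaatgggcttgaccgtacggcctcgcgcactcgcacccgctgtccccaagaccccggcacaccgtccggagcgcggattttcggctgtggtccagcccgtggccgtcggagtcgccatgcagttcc
Ctss: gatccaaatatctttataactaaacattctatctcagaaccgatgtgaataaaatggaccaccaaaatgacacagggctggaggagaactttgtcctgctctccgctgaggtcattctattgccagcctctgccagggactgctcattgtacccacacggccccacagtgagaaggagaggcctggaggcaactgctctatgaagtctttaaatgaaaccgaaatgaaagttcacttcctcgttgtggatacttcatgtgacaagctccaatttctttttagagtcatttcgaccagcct

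The Sult1a1 promoter held 1 half-site, which begins 89 bases before the start, and the windows of Htra1 and Ctss held none. A half-site is found in 20.7% of the 33469 promoters in the table, and the paired site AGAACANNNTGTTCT in 5 of them. A match describes letters only, and the absence of one says only that these letters are not in this window.

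Sult1a1 encodes a cytosolic phenol sulfotransferase, an enzyme that adds sulfate to phenolic compounds, including some hormones and catecholamines. Its log2 signal in Sham was 7.70 and 8.02 at AM and 8.82 and 8.25 at PM. In ADX it was 5.65 and 5.66 at AM and 6.38 and 6.25 at PM. Every ADX array lay below every Sham array by more than 1 log2 unit, and within both treatments the PM arrays were the higher. The gene fell by 2.22 on the log2 scale (SE 0.21), which is 4.64-fold lower in ADX (adjusted p = 0.0266). In pADX it stood at 8.37 ± 0.17 (SD, n = 4), against 8.20 ± 0.47 (SD, n = 4) in Sham.

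Paqr8 encodes a membrane progestin receptor, a steroid receptor of the cell surface that is abundant in brain. Its signal in Sham was 9.76, 9.79, 9.82 and 9.64, and in ADX it was 9.13, 9.02, 9.00 and 8.92. The groups did not overlap, and the spread within each was small. It fell by 0.73 (SE 0.05, 1.66-fold, adjusted p = 0.00376), which was the smallest adjusted p of the comparison. A second Paqr8 probe set of lower signal went from a mean of 7.42 to 6.86, a difference of -0.56 (adjusted p = 0.169). Of the other Paqr8 probe sets, 1 went from 8.55 to 8.21 (-0.34, SE 0.10) and the dimmest from 5.31 to 5.45 (0.15, SE 0.44), and neither passed.

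Htra1 encodes a secreted serine protease that cuts extracellular matrix proteins and growth factor binding proteins. Its signal in Sham was 8.37, 8.46, 8.38 and 8.41, and in ADX it was 6.99, 7.52, 7.32 and 7.38. All 4 ADX arrays lay below the Sham range, with ADX AM replicate 1 the lowest. It fell by 1.11 (SE 0.11, 2.15-fold, adjusted p = 0.0296).

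Ctss encodes cathepsin S, a lysosomal cysteine protease that in brain is made mostly by microglia, the resident macrophages. Its signal in Sham was 10.54, 10.51, 10.59 and 10.54, and in ADX it was 9.97, 10.08, 10.13 and 10.02. It fell by 0.49 (SE 0.04, 1.41-fold, adjusted p = 0.0215), and the pADX arrays, at 10.33 ± 0.07 (SD, n = 4), stood between both groups. Of 12 microglial and macrophage markers measured it was the only one that passed, beside 0.0281% of all genes lower. C1qa (-0.26, SE 0.18), C1qc (-0.26, SE 0.15) and Cd74 (-0.40, SE 0.29) did not pass. Of the 12 markers 8 had a negative and 4 a positive change, and the median change was -0.08, against 0 over all genes. Over all genes 43.0% had a negative change, with those of no change counted among the rest. In RNA from whole tissue, fewer cells of a type and less RNA per cell cannot be told apart.

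The unnamed probe set 1370310_at read 7.06, 7.02, 6.77 and 6.66 in Sham and 5.34, 5.57, 4.98 and 5.42 in ADX. It fell by 1.55 (SE 0.13, 2.93-fold, adjusted p = 0.0205). Its pADX mean of 6.81 ± 0.22 (SD, n = 4) lay within the range of Sham, whereas the lowest pADX array, at 6.50, lay below it.

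The pADX arrays help to estimate the spread behind these calls. With the 8 ADX and Sham arrays alone, limma called 0 probe sets, with 1995 at an unadjusted p under 0.05. Leaving out Sham AM replicate 2, Sham PM replicate 1 or Sham PM replicate 2 left 1 call in each case, and leaving out Sham AM replicate 1 gave 8.

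**Figure D1:**
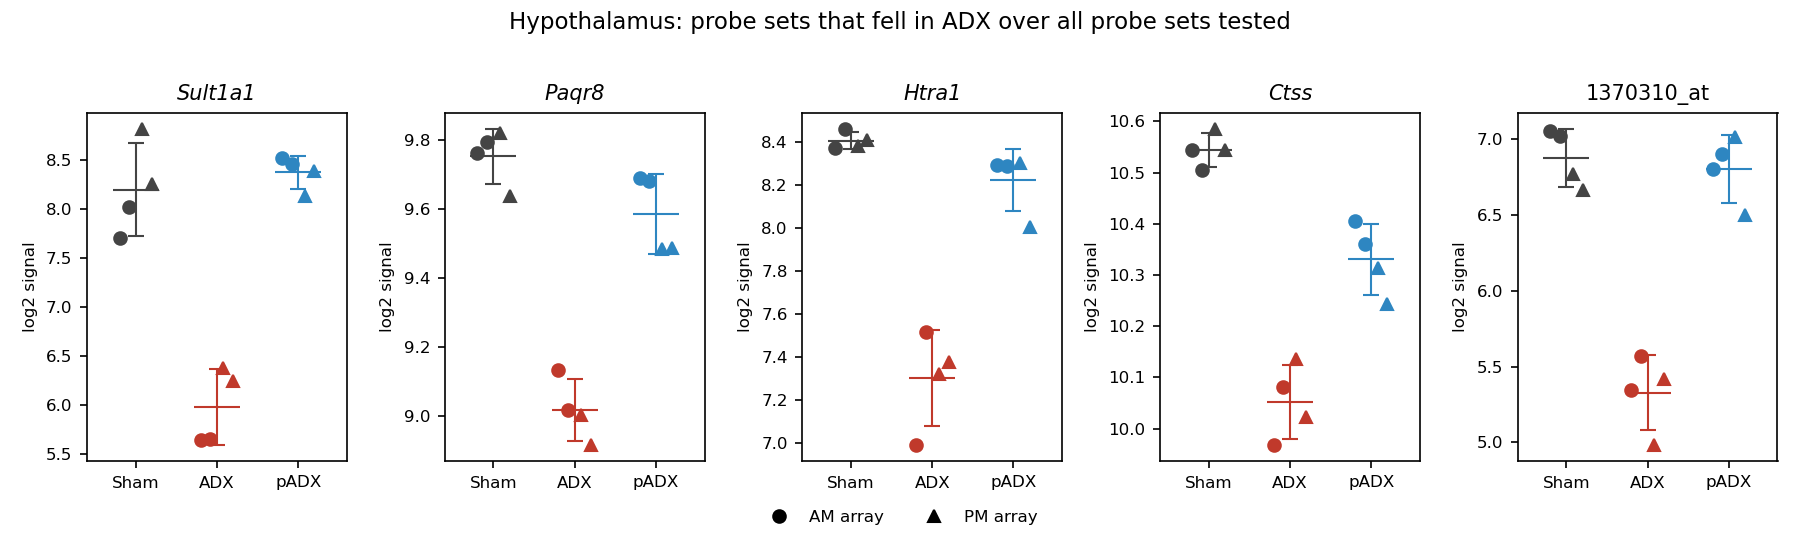
Log2 signal of the 5 probe sets that fell in ADX, 1 panel each with its own vertical axis, against treatment; each point is 1 array (circles AM, triangles PM), and the bar with whiskers is the mean ± SD of 4 arrays. In every panel the 4 ADX arrays lie below the 4 Sham arrays, and in the Ctss panel pADX, at a mean of 10.33, lies between them.

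The pADX arrays were set against the same Sham arrays. In limma, 0 of 31042 probe sets passed for pADX against Sham (0% in each direction), with 737 lower and 686 higher at an unadjusted p under 0.05 (2.37% and 2.21%). Set directly against pADX, ADX was lower for 3 probe sets (0.00966% of those tested) and higher for 0, with 1234 lower and 1245 higher at an unadjusted p under 0.05 (3.98% and 4.01%). The 3 were Sult1a1 (-2.39, adjusted p = 0.0205), Paqr8 (-0.57, adjusted p = 0.0205) and 1370310_at (-1.48, adjusted p = 0.0205). Htra1 (-0.92, adjusted p = 0.0835) and Ctss (-0.28, adjusted p = 0.215) missed the threshold there, in a contrast that shares the ADX arrays with the comparison above. With the 40% of lowest mean signal left out, 19 probe sets were lower (0.102%) and 3 higher (0.0161%) in ADX than in pADX. Htra1 passed there (adjusted p = 0.00135), as did Glul (-0.45, adjusted p = 0.00624) and Net1 (-0.87, adjusted p = 0.00624), and Ctss did not (adjusted p = 0.0713). Net1 was at a mean of 7.07 in ADX, 7.93 in pADX and 7.63 in Sham. For Net1, Slc9a2, Ccn3, Abhd1 and Klhdc7a among the lower calls, every pADX array lay above every Sham array. Their differences thus hold a higher pADX level too. For the other lower calls this was not so. The 3 higher ones were Cxcr4, a chemokine receptor gene, at 5.90 in ADX, 4.93 in pADX and 5.31 in Sham, Baalc at 9.13, 8.74 and 8.86, and Rab3gap1 at 6.65, 5.81 and 6.72. They were named after their values were seen, and none of the 3 passed against Sham. Cxcr4 and Rab3gap1 each have a brighter probe set, which was not among these calls. For Rab3gap1 the pADX arrays stood apart from both other groups.

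Many of the 31042 probe sets lay at or near the floor. With the 40% of lowest mean signal left out, 18625 probe sets remained, of which 22 fell (0.118%) and 5 rose (0.0268%) at the same threshold, the 5 above included. By genes, with the brightest probe set for each, these were 13 of 10324 lower (0.126%) and 4 higher (0.0387%). The adjusted p-values in the account of these genes come from this set, and their changes did not pass over all probe sets, where their adjusted p-values ran from 0.169 for Glul to 0.449 for the unnamed 1383393_at. With 8 arrays alone 17 of the 27 calls were kept, and 11 were kept whichever of the 8 arrays was left out. Without Sham AM replicate 2 the count was 13, and without Sham PM replicate 1 it was 15.

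Among metabolic genes, Glul, Prodh and Phyhd1 fell. Glul encodes glutamine synthetase, the enzyme by which astrocytes turn glutamate into glutamine. Its signal was 11.29, 11.31, 11.24 and 11.31 in Sham and 10.85, 10.72, 10.86 and 10.81 in ADX, with no overlap. The difference was -0.48 (1.40-fold, adjusted p = 0.00222). Prodh encodes proline dehydrogenase, the mitochondrial enzyme that starts the breakdown of proline. It was at 7.80, 8.50, 8.08 and 8.11 in Sham and at 6.42, 7.35, 7.14 and 7.17 in ADX, a difference of -1.10 (2.15-fold, adjusted p = 0.0124). Phyhd1, which encodes an enzyme related to phytanoyl-CoA hydroxylase, was at 7.45, 7.50, 7.67 and 7.50 in Sham and at 7.08, 6.86, 6.72 and 6.68 in ADX (-0.69, adjusted p = 0.0252). The ADX values of these 3 genes lay wholly below those of Sham. The other 2 Glul probe sets had changes of -0.47 and -0.50. Glul was 1 of 11 astrocyte markers, of which 0 passed over all genes and whose median change was -0.10. The astrocyte markers Ndrg2 (-0.12, SE 0.07) and Gja1 (-0.13, SE 0.11) did not pass.

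Alas2 and Hbb, of 4 blood markers measured, fell. Of 12 iron and heme genes, 7 had a negative and 5 a positive change, beside 43.0% negative over all genes. Over all probe sets 0 of them passed. Of the 11 left in this set 2 fell, Alas2 and Heph, beside 0.126% of all genes in it. Alas2, the enzyme that starts heme synthesis in red cell precursors, was at 6.44, 7.17, 7.10 and 8.11 in Sham and at 4.87, 5.43, 5.73 and 5.02 in ADX. The difference was -1.94 (3.84-fold, adjusted p = 0.0114). Hbb, a beta-globin gene, was at 11.87, 12.28, 12.26 and 12.71 in Sham and at 9.99, 10.77, 11.43 and 10.63 in ADX (-1.58, 2.98-fold, adjusted p = 0.00923). Globin genes are near-identical copies whose probes can share transcripts, and 5 more probe sets that carry several gene symbols also fell. The other blood markers, Slc4a1 and Ahsp, were at or near the floor. The summed linear level of the 4 markers was 3882 to 7025 in Sham and 1081 to 2850 in ADX. The part of blood in the tissue in other changes was not tested. Heph, which encodes the iron-exporting ferroxidase hephaestin, went from 6.25 ± 0.20 to 5.29 ± 0.29 (SD, n = 4 each), a difference of -0.96 (adjusted p = 0.0263).

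The remaining genes that fell were Pdyn, Bmp6, Klhl2 and Grifin. Pdyn encodes prodynorphin, the precursor of opioid peptides that vasopressin neurons also make. Its signal was 8.92, 9.02, 8.88 and 9.02 in Sham and 8.47, 8.60, 8.55 and 8.33 in ADX (-0.47, 1.39-fold, adjusted p = 0.0202). A dimmer Pdyn probe set did not move with it, at 6.07 in Sham and 6.13 in ADX (0.06). Bmp6, a secreted growth factor of the bone morphogenetic protein family, went from 6.85 ± 0.24 to 6.02 ± 0.13 (SD, n = 4 each; -0.83, adjusted p = 0.0246), and a brighter probe set from 7.65 to 7.01 (-0.64, adjusted p = 0.639 over all probe sets). Klhl2, whose protein brings substrates to a ubiquitin ligase, went from 8.09 ± 0.14 to 7.53 ± 0.23 (SD, n = 4 each; -0.56, adjusted p = 0.0382), and a dimmer one changed by -0.17 without passing. Grifin, a gene of the galectin family best known from the lens, was at 6.52, 7.12, 6.96 and 7.06 in Sham and at the floor, 4.94, 5.94 and 4.82 in ADX (adjusted p = 0.00494). With ADX AM replicate 1 at the floor, the fold is at least 3.98. The calls of Pdyn, Bmp6, Heph, Phyhd1 and Klhl2 were kept in at most 3 of the 8 fits that left out 1 array.

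Lix1, Nrep, Hhatl and Ccdc85b rose, with the unnamed probe set 1383393_at. Lix1, a gene first described for its expression in developing limbs, was at 8.37, 8.45, 8.42 and 8.65 in Sham and at 8.97, 9.09, 8.95 and 8.97 in ADX (0.52, 1.43-fold, adjusted p = 0.0124). Nrep, which encodes a small neuronal protein linked to regeneration, was at 9.34, 9.06, 9.06 and 8.99 in Sham and at 9.50, 9.70, 9.67 and 9.50 in ADX (0.48, adjusted p = 0.0176). Hhatl rose from 6.76 ± 0.10 to 7.42 ± 0.19 (SD, n = 4 each; adjusted p = 0.0348). Ccdc85b rose from 4.80 ± 0.42 to 5.98 ± 0.20 (SD, n = 4 each; adjusted p = 0.0451), and its pADX arrays, at a mean of 5.87, stood near ADX. Probe set 1383393_at went from 7.26 ± 0.44 to 8.64 ± 0.37 (SD, n = 4 each; 1.39, adjusted p = 0.0414). No array of the groups overlapped for these genes, and each of the 5 calls was lost in at least 4 of the 8 fits that left out 1 array.

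**Figure D2:**
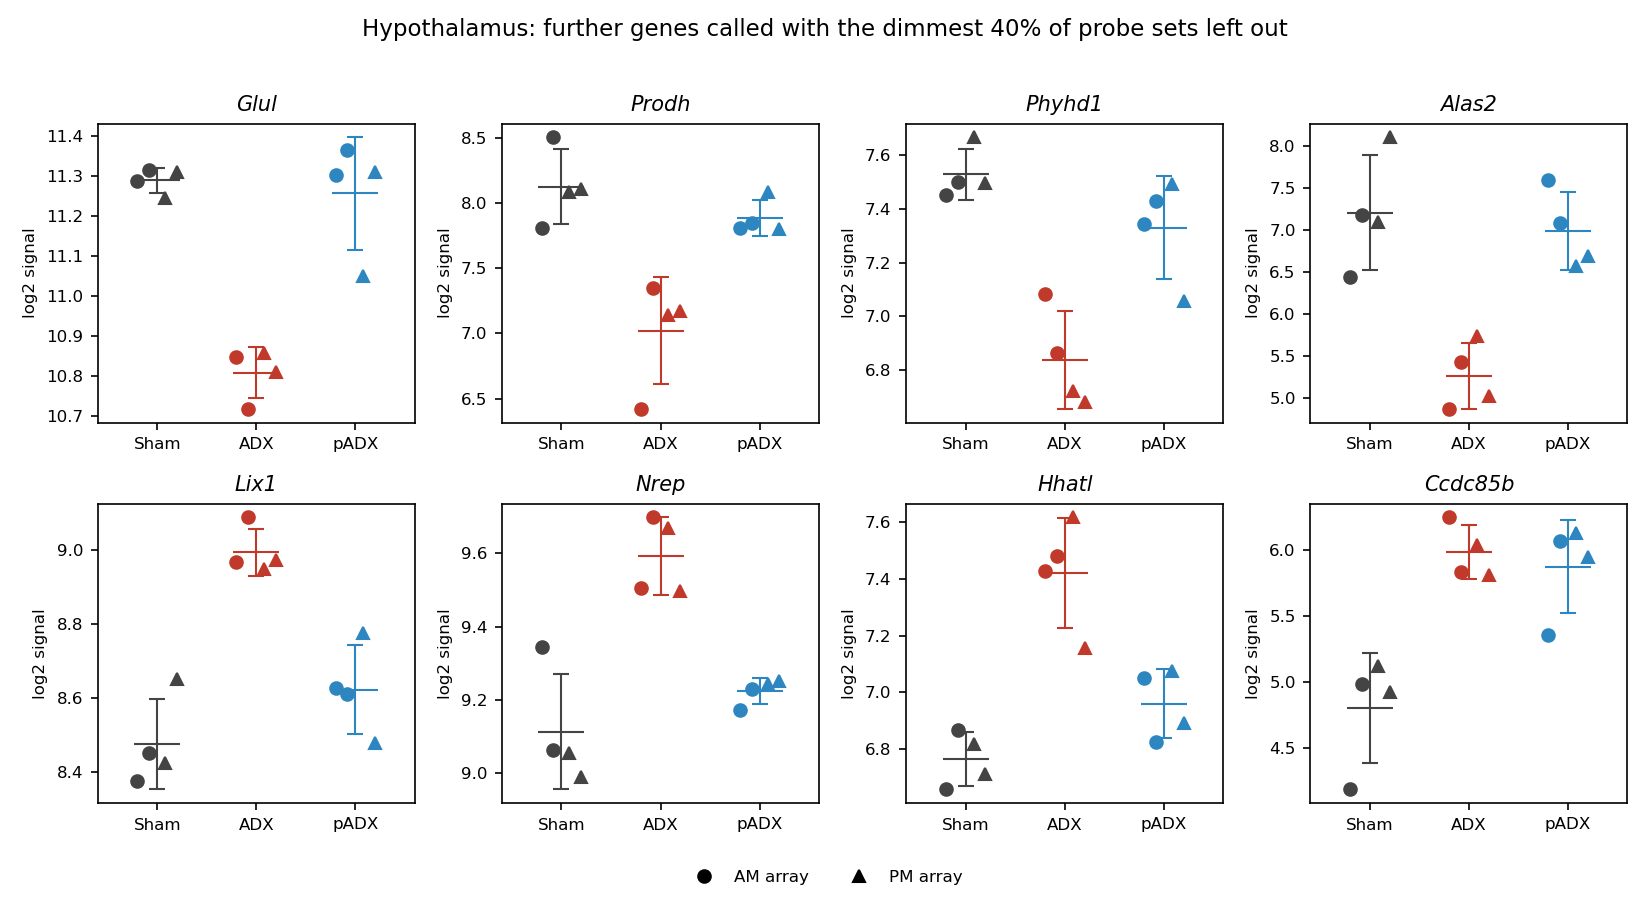
Log2 signal of 8 further genes called with the dimmest 40% of probe sets left out, against treatment; points are arrays (circles AM, triangles PM) and bars with whiskers the mean ± SD of 4 arrays, each panel with its own axis. Glul, Prodh, Phyhd1 and Alas2 were lower on all 4 ADX arrays and Lix1, Nrep, Hhatl and Ccdc85b higher, and for Ccdc85b the pADX mean of 5.87 stood near the ADX mean of 5.98.

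Of the promoters of the 18 named genes called with either set of probe sets, 16 were in the RefSeq table and Paqr8 and Prodh were not. A half-site lay in that of 1 gene, Sult1a1, and the paired site in none.

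Of 43 measured genes on a list of glucocorticoid-induced genes, 34 had a negative change in ADX, 6 a positive one and 3 none, beside 43.0% negative over all genes. Over all probe sets 2 of the 43 fell, Sult1a1 and Htra1, and 0 rose, beside 0.0281% of all genes lower and 0% higher. At an unadjusted p under 0.05, 12 of the 43 were lower and 0 higher, beside 3.78% of all 14217 genes lower and 3.54% higher. In 6 of the 43 every ADX array lay below every Sham array and in 0 above, beside 1.74% and 1.62% of all genes. The median change of the list was -0.16, against 0 over all genes, and in pADX it was 0. The list was drawn up with earlier results of these arrays known, Htra1 in particular, so its direction is not independent evidence. Net1 was at 7.63 in Sham and 7.07 in ADX (-0.56, adjusted p = 0.36). Angptl4, a secreted inhibitor of lipoprotein lipase, was at 6.32 and 5.61 (-0.71, adjusted p = 0.461). Both had ADX arrays wholly below Sham. The classical targets Fkbp5 (-0.25, SE 0.18), Sgk1 (-0.73, SE 0.35), Tsc22d3 (-0.28, SE 0.11) and Mt2A (0.02, SE 0.15) did not pass, and their groups overlapped. Fkbp5 encodes a co-chaperone of the receptor, Sgk1 a kinase, Tsc22d3 an anti-inflammatory protein and Mt2A a metallothionein. Per1, a clock gene that glucocorticoids also induce, was at the floor in 2 Sham and 3 ADX arrays.

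Of 23 fuel metabolism genes 0 passed over all probe sets, and the median change was -0.14. At an unadjusted p under 0.05, 7 were lower and 2 higher, beside 3.78% and 3.54% of all genes. In 6 of the 23 every ADX array lay below every Sham array and in 0 above, beside 1.74% and 1.62% of all genes. With the lowest 40% of probe sets left out 2 of the 22 genes left on the list fell, Prodh and Phyhd1, beside 0.126% of all genes left in. Gpd1, the cytosolic glycerol-3-phosphate dehydrogenase of glial cells, had the largest change of the list (-1.42, SE 0.35, adjusted p = 0.481). Aldoc, the brain aldolase, went from 11.65 to 11.36 (-0.29, SE 0.06, adjusted p = 0.364). Among 20 steroid and metabolic hormone receptor genes 1 fell, Paqr8, beside 0.0281% of all genes, and the median change of the list was 0.

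Time of day separated the Sham arrays for several of these genes. Gpd1 was at 7.42 and 7.09 in Sham AM and at 8.73 and 8.72 in Sham PM, whereas the 4 ADX arrays lay between 6.47 and 6.68. The ADX change was -0.64 at AM and -2.19 at PM, a difference of -1.55 (SE 0.22, unadjusted p = 0.000232, adjusted p = 0.20). Sgk1 was at 7.41 and 7.57 in Sham AM, at 9.21 and 8.50 in Sham PM and between 7.38 and 7.56 in ADX, with changes of -0.07 and -1.39 (difference -1.32, SE 0.31, adjusted p = 0.70). Tsc22d3 was at 9.33 and 9.20 in Sham AM, at 9.90 and 9.73 in Sham PM and between 9.21 and 9.31 in ADX, with changes of -0.04 and -0.51 (difference -0.47, SE 0.10, adjusted p = 0.582). For all 3 genes the Sham PM arrays stood above every other Sham and ADX array, and none of the differences between times passed. For Sult1a1 the change was -2.21 at AM and -2.22 at PM, and for Ctss it was -0.50 and -0.49.

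Over the glucocorticoid-induced list the median ADX change was -0.05 at AM and -0.30 at PM, against 0 at each time over all genes. In 28 of the 43 genes (65.1%) the PM change was the lower, beside 44.8% of all genes. The share over all genes counts those of no difference, as at the floor, among the rest. Each value within a time of day compared 2 arrays with 2.

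In the test of the difference between PM and AM, 20 probe sets passed, 11 lower at PM (0.0354%) and 9 higher (0.029%). Of these 18 had a mean log2 signal of 5 or less, at or near the floor. The other 2, both without a gene symbol, were the only ones called with the dimmest 40% left out (2 lower, 0.0107%, and 0 higher). Probe set 1380306_at was at 7.16 and 7.26 in Sham AM, at 8.64 and 8.63 in Sham PM and between 7.20 and 7.26 in ADX, a difference of -1.46 between the times (adjusted p = 0.00665). Probe set 1397225_at was at 5.89 and 5.71 in Sham AM, at 7.42 and 7.72 in Sham PM and between 5.93 and 6.45 in ADX (-2.08, adjusted p = 0.0489). For both, the Sham PM arrays stood above all other hypothalamus arrays. For Sgk1 and Tsc22d3 the pADX AM arrays were also above Sham AM, at 8.12 and 8.32 for Sgk1 and at 9.55 and 9.60 for Tsc22d3. Leaving out any 1 of the 8 arrays raised the count of calls to between 146 and 414, so the count itself is not steady.

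**Figure D3:**
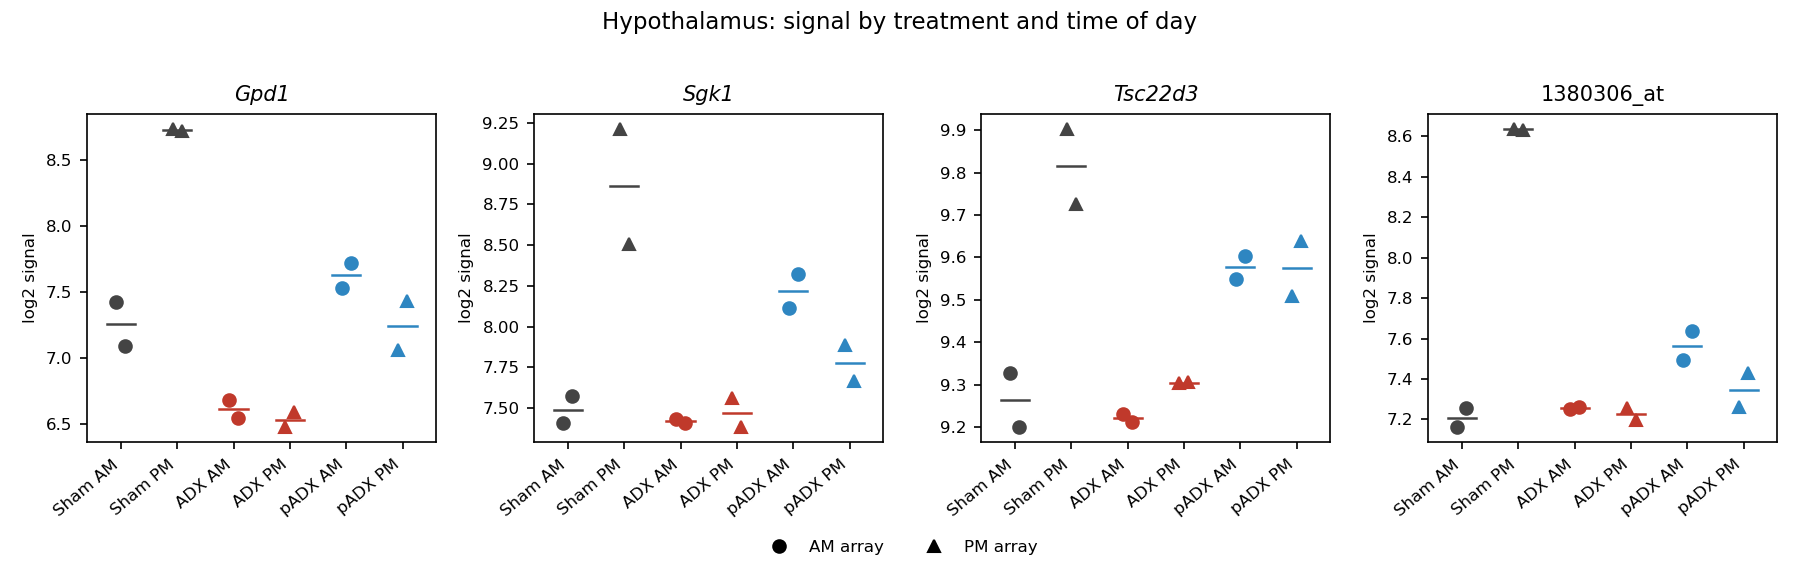
Log2 signal of Gpd1, Sgk1, Tsc22d3 and the unnamed probe set 1380306_at, 1 panel each with its own axis, against treatment and time of day; each point is 1 array and each line the mean of 2. In every panel both Sham PM arrays stand above the Sham AM arrays and the ADX arrays of either time, for Gpd1 at 8.73 and 8.72 against at most 7.42.

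Of 19 genes for stress peptides, their receptors and the corticosteroid receptors 0 passed, and the median change was 0. At an unadjusted p under 0.05, 1 was lower and 1 higher, beside 3.78% and 3.54% of all genes. Crh was at 5.50, 5.45, 5.02 and 5.23 in Sham and at 6.95, 5.62, 6.51 and 6.22 in ADX. Every ADX array lay above every Sham array, and the change was 1.03 (SE 0.27, 2.04-fold, adjusted p = 0.498). In pADX Crh was at 5.24, 4.89, 5.03 and 5.40. Avp was at 11.40, 11.20, 11.31 and 11.74 in Sham and at 11.19, 10.61, 10.98 and 10.81 in ADX, all below Sham (-0.52, SE 0.15, adjusted p = 0.584). Crh and Avp thus stood apart by array without passing, beside 1.62% of all genes wholly above and 1.74% wholly below. The receptor genes Nr3c1 (-0.13, 95% interval -0.42 to 0.16) and Nr3c2 (0.09, -0.13 to 0.30) did not pass, and Nr3c2 turned negative on the values as deposited. Hsd11b1, whose enzyme regenerates active glucocorticoid within cells, was at 7.07 and 6.93.

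Of 20 releasing hormones and magnocellular peptides, 0 passed over all probe sets. At an unadjusted p under 0.05, 2 were lower and 1 higher, beside 3.78% and 3.54% of all genes. ADX arrays lay wholly below Sham for Avp, Pdyn and Penk, the enkephalin precursor (-0.13, SE 0.07), and wholly above for Crh. Over all genes 1.74% lay wholly below and 1.62% wholly above. Oxt, the oxytocin gene, was at 11.19, 9.87, 10.78 and 11.49 in Sham and at 11.63, 10.85, 11.28 and 11.32 in ADX (0.44, SE 0.32). Its Sham arrays spread over more than 1 log2 unit and the groups overlapped. Trh, the thyrotropin-releasing hormone gene, was at 8.25 ± 0.10 in Sham and 8.38 ± 0.16 in ADX (SD, n = 4 each).

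Of 21 feeding and energy balance genes 0 passed. At an unadjusted p under 0.05, 2 were lower and 1 higher, beside 3.78% and 3.54% of all genes. Npy1r, a receptor of neuropeptide Y, was at 7.13, 7.38, 7.15 and 7.25 in Sham and at 6.59, 6.84, 6.81 and 6.60 in ADX (-0.52, SE 0.07, adjusted p = 0.179). The pADX arrays, at 6.98, 7.01, 6.85 and 6.90, lay between both groups. Npy itself, which encodes a peptide that promotes feeding, was at 9.07, 9.11, 9.05 and 9.08 in Sham and at 7.61, 8.77, 8.79 and 8.92 in ADX (-0.55, SE 0.25, adjusted p = 0.78). ADX AM replicate 1 stood far below the other ADX arrays, and without it the change was -0.24. A second receptor gene, Npy5r, went from 5.96 to 5.61 (-0.35, SE 0.14, adjusted p = 0.751). These were the 3 of the 21 genes whose ADX arrays lay wholly below Sham, beside 1.74% of all genes, and they are named for that reason. The arousal and feeding peptides Hcrt (0.31, SE 0.25) and Pmch (0.19, SE 0.12), which mark the lateral hypothalamus, overlapped between groups, and both turned negative on the values as deposited.

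**Figure D4:**
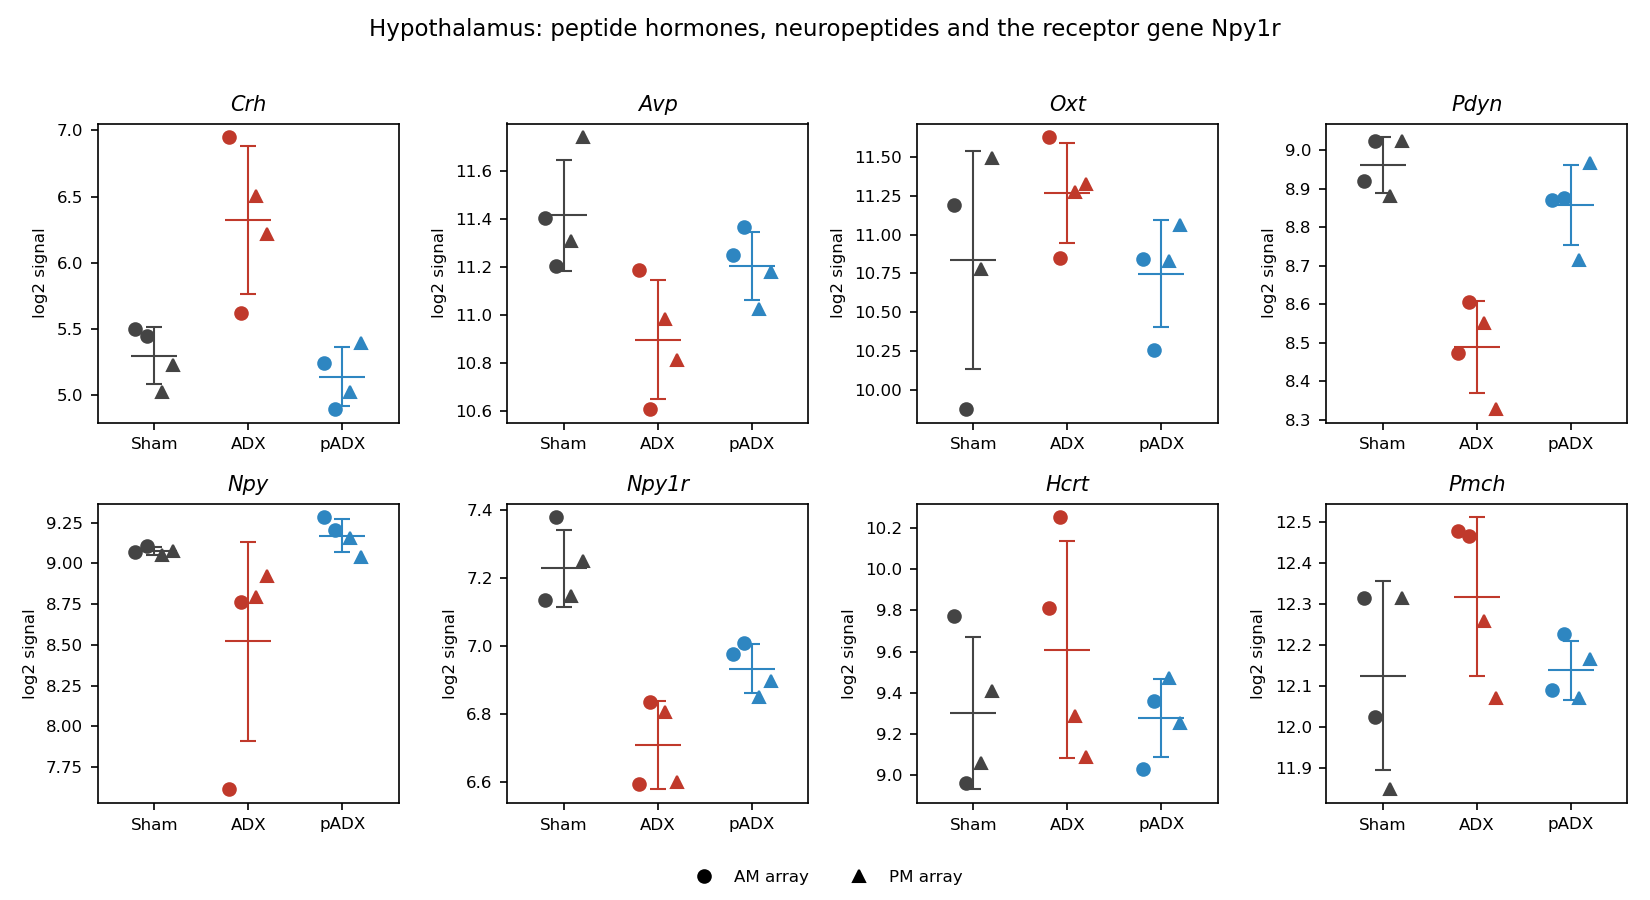
Log2 signal of 7 peptide genes and the receptor gene Npy1r, 1 panel each with its own axis, against treatment; points are arrays (circles AM, triangles PM) and bars with whiskers the mean ± SD of 4 arrays. The ADX arrays lie wholly above Sham for Crh and wholly below for Avp, Pdyn, Npy and Npy1r, and overlap with Sham for Oxt, Hcrt and Pmch; none passed over all probe sets.

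Clock genes (20 measured), immediate early genes (20), monoamine genes (25), GABA and glutamate receptors (26), salt and water balance genes (20), iron and heme genes (12) and the insulin-like growth factor system (12) had 0 members that passed over all probe sets. At an unadjusted p under 0.05, which 3.78% of all genes passed as lower and 3.54% as higher, 3 of the 20 salt and water genes, 2 of the 12 iron and heme genes and 2 of the 20 clock genes were lower. In the other lists at most 1 was lower, and in each of the 7 at most 1 was higher. Their median changes were 0.07, -0.02, 0.01, -0.02, 0, -0.08 and -0.07 in that order. Gabbr1, a subunit of the GABA-B receptor, was at 10.40 in Sham and 10.61 in ADX, with no overlap (0.21, SE 0.05, adjusted p = 0.476). Igfbp5, a binding protein of insulin-like growth factors, was at 8.22 and 8.84 (0.62, SE 0.17, adjusted p = 0.525), and Agt, the angiotensin precursor, at 10.88 and 10.63 (-0.25, SE 0.08, adjusted p = 0.639). Alox15, an arachidonate lipoxygenase, was at 4.88, 5.47, 5.24 and 5.05 in Sham and at the floor on all 4 ADX arrays. That makes it at least 2.24-fold lower (adjusted p = 0.198). In pADX its mean was 4.22, with 2 of 4 arrays at the floor and every array below Sham.

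Markers of neighbouring cells and tissues bear on these values. The median change was 0.04 for 12 neuronal markers, -0.11 for 11 of oligodendrocytes, -0.08 for 10 of tanycytes and ependyma, -0.05 for 12 of vessels, 0.02 for 8 of choroid plexus, 0.03 for 9 of thalamus and -0.06 for 9 of striatum. None of these passed. At an unadjusted p under 0.05, 3 of the 11 oligodendrocyte markers were lower and 0 higher, beside 3.78% and 3.54% of all genes. Of the 12 neuronal and the 12 vessel markers, 0 were lower and 2 of each were higher. The other lists each had at most 1 lower and at most 1 higher. For 12 meningeal and fibroblast markers the median change was -0.38, with 10 negative and none past the threshold. Their median change was -0.62 at AM and -0.003 at PM, each 2 arrays against 2, and 0.24 for pADX against Sham. Their summed levels were 7521 to 10710 in Sham and 3955 to 10090 in ADX. The summed level of 10 pituitary markers was 720 to 2409 in Sham, against 191 to 1515 in ADX, and 3 of the 10 were at the floor on all 8 arrays. The part of these tissues in the results was not tested.

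The hypothalamus was then set against the septum, amygdala, dorsal raphe and locus coeruleus, as the difference of log2 values within each combination of treatment, time and replicate number. Whether the regions came from the same animals is not stated. In limma 4 of 31042 probe sets passed, 2 with a lower and 2 with a higher change in the hypothalamus (0.00644% each). All but 1 of these, including Car3 and Fbxo42, were at the floor on every hypothalamus array. The exception was Fgf9, which encodes a fibroblast growth factor, with a difference of 0.20 (SE 0.02, adjusted p = 0.0288). Its hypothalamic signal was 8.26, 8.17, 8.28 and 8.27 in Sham and 8.38, 8.42, 8.46 and 8.31 in ADX (0.15), and its call was lost with the dimmest 40% left out (adjusted p = 0.706).

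None of the 27 probe sets called in the hypothalamus passed that test. Of the 27, 18 were lower in ADX in all 7 regions, the hypothalamus included, and 4 higher in all 7. The regions may share animals, and the changes were not tested together. The 18 include Hbb, the globin probe sets that carry several gene symbols and both called Paqr8 probe sets, so they are not 18 separate genes. The same count was not taken over all probe sets, so these figures have no background beside them. The Sult1a1 change was -2.22 in the hypothalamus, -2.19 in the septum and -1.57 in the locus coeruleus, and its difference from the other regions was -0.19 (95% interval -0.57 to 0.18). For Htra1 the 95% interval of that difference was -0.28 to 0.28, and for Glul the difference was -0.07 (-0.25 to 0.11). Paqr8 (-0.11, SE 0.05) and Ctss (-0.20, SE 0.10) had lower changes in the hypothalamus than in the other regions, without passing (adjusted p = 0.809 and 0.822).

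The regional values of 4 further genes were chosen after they were seen. Npy1r had a change of -0.52 there, -0.09 in the septum, -0.03 in the amygdala and 0.12 in the dorsal raphe, a difference of -0.53 (SE 0.09, unadjusted p = 0.000272, adjusted p = 0.409). Klhl2 was at -0.56, against 0.41 in the septum and -0.29 in the amygdala (difference -0.53, SE 0.11, adjusted p = 0.447). Bmp6 was at -0.83, against 0.01 in the septum and -0.84 in the dorsal raphe (difference -0.68, SE 0.20, adjusted p = 0.694). Crh was at 1.03, against -0.07 in the septum and -0.04 in the amygdala (difference 0.96, SE 0.31, adjusted p = 0.701). None of these differences passed. The median change of the glucocorticoid-induced list was -0.16 in the hypothalamus, -0.23 in the septum, -0.20 in the amygdala and -0.29 in the hippocampus. It was -0.21 in the dorsal raphe and -0.22 in the locus coeruleus. In the frontal cortex it was -0.44, where the median of all genes was -0.03. That region has no labelled replicate 1 of ADX or Sham at AM, so its changes rest on fewer arrays. Frontal cortex arrays whose titles name no treatment were not in its model.

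**Figure D5:**
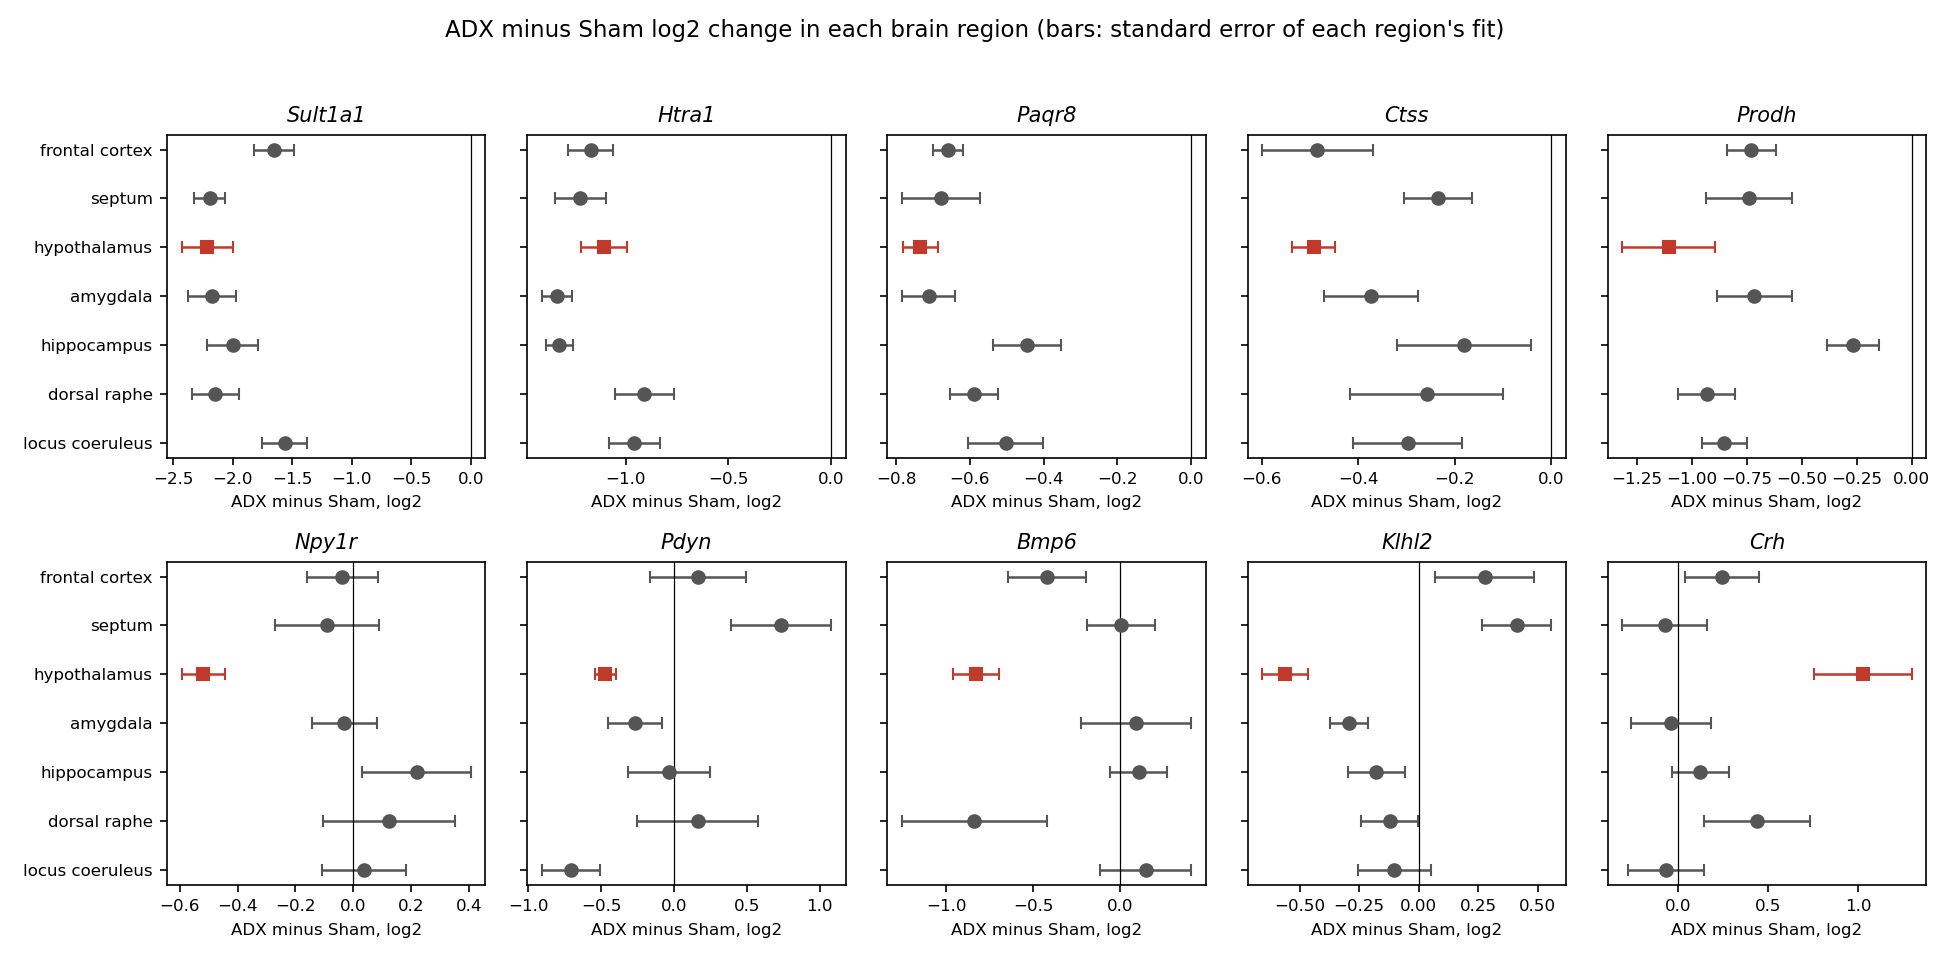
ADX minus Sham log2 change of 10 genes in 7 brain regions, 1 panel a gene with its own horizontal axis; points are the estimates of each region's own limma model, whiskers their standard errors, and the square marks the hypothalamus. Sult1a1, Htra1, Paqr8, Ctss and Prodh lie below 0 in all 7 regions, whereas Npy1r and Crh stand furthest from 0 in the hypothalamus, at -0.52 and 1.03. The frontal cortex lacks a labelled replicate 1 of ADX and Sham at AM.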

How the data were processed

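Each deposited value is a linear intensity, 1 for every probe set on every array. How the authors scaled and background-corrected these intensities, and with which software, is information not given in the sources used. Trimmed means of the hypothalamus arrays as deposited differed, so the intensities were quantile normalized over all 82 arrays; values under 16 were raised to 16, and log2 was taken. Without 57 control probe sets, 31042 were tested without a filter. Of these 20826 carry 1 gene symbol in the platform annotation, 436 several and 9780 none; 20758 were matched to the RefSeq genes of GRCr8, and 14217 genes were named. Groups came from the titles.

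Using lmFit and eBayes with trend, limma 3.58.1 (R 4.3.3) fitted treatment and time of day over 12 arrays; 6 means of treatment by time gave the interaction. Calls were made at a Benjamini-Hochberg adjusted p of 0.05. A fold is the higher over the lower group's mean, on floored values. The code was tested on simulated data.

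By each gene's probe set of highest mean, genes past the threshold (at most 15 a direction) were picked for naming, filled to 10 a direction by smallest p. The first 5 a direction of each interaction and fixed peptide and target genes were added. Not all picked genes are described. Left out are Akap7 (-0.15, SE 0.02, adjusted p = 0.0859 in limma), Tvp23b, Polr2c, Dedd, Cndp2, Vps52, Osgep and Ptpn1. The genes picked from the time-of-day interaction, at or near the floor, are also left out. Members of the lists with small p and the single-symbol genes called with the lowest 40% left out were named after their values were seen. The members and lists were chosen with earlier results of these data known. Alternatives covered normalization, floor, filter, arrays in the model, time term, trend, array weights, replicate block and leaving out each array.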

Additional observations from a re-analysis of the deposited data

Results flagged for a closer look

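Among 109 groups of 4 arrays checked for a value far from the rest, 2 held one. The cut is meant for about 1 in 20 by chance. That rate does not hold here, as probe sets were partly picked by their values and each group mixes AM and PM arrays. Npy on ADX AM replicate 1 was at 7.61 on the log2 scale, against 8.77 to 8.92 on the other 3 ADX arrays. Per1 on ADX AM replicate 2 was at 4.93, with the other 3 at the floor of 4, so any value above the floor would have been flagged.

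The ADX change differed between PM and AM, by the test of that difference, for 2 unnamed probe sets above a mean of 5, 1380306_at (-1.46) and 1397225_at (-2.08), both with high Sham PM arrays. The ADX change of Fgf9 was higher in the hypothalamus than in the other 4 regions by 0.198.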

How the results depend on the processing

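Probe sets called for ADX against Sham numbered 5, but 244 on the values as deposited, where the median change of all probe sets was -0.22 and every call was lower, 17 with log2(value + 16), 27 with the lowest 40% or those with a mean of 5 or less left out (fewer tested; the latter added after seeing the data), 0 with 8 arrays, and 1 to 8 without 1 array. With the replicate number as a block, 1 was called. Same-numbered hypothalamus arrays did not deviate together (15 correlations, -0.13 to 0.07), so the numbers were not taken as a pairing among them. The test of hypothalamus minus other regions did match arrays by number, which these correlations do not cover. The interaction with time of day (20) gave 12 with arrays scaled to a trimmed mean, 8 as deposited, 1 with log2(value + 16), 2 with either filter, 11 without trend, 11 with the replicate block and 146 to 414 without 1 array. The hypothalamus minus other regions (4) gave 2 with the trimmed mean, 1 with the block, 0 to 2 without 1 array, and 0 with quantile normalization within regions (2001 probe sets at an unadjusted p under 0.05), as deposited (1023), floor 32 (1518), log2(value + 16) (2075), the lowest 40% left out (1233), a mean of 5 or less left out (1188) or septum and amygdala alone (2334). pADX against Sham (0) gave 1 with the trimmed mean, 4 as deposited and 0 to 2 without 1 array. The 27 calls with the lowest 40% left out became 3886 as deposited, 4 without trend and 13 to 31 without 1 array. Paqr8 lost its call in 1 of 20 alternatives, 1370310_at in 5, Ctss and Htra1 in 8 and Sult1a1 in 9. No called change turned sign. The causes were not tested. Low signal limits the genes near the floor, where changes are bounds.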
